A study of Homo sapiens with 12 samples.

Results

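DNA replication and G1/S genes were followed as a fixed list of 51 symbols, selected by name from the deposited table of 28035 genes, and 51 of 51 were found and tested. The cells were OVCAR-3, an established human line from an ovarian adenocarcinoma, labelled wild type. All cultures were sampled 6 hours into treatment. The Combination group received fusicoccin A (FC-A) together with interferon alpha, the IFNa group interferon alpha alone, the FC-A group fusicoccin A alone, and the DMSO group the vehicle. Each group had 3 libraries, and doses are not given in the labels. FC-A is a fungal diterpene that stabilizes complexes of 14-3-3 proteins with their partners, and interferon alpha is a cytokine that acts through JAK-STAT signalling. As a single cell line at a single time, the design says nothing of other cells or later times. The labels do not say whether the libraries of a group came from separate cultures, so p-values measure the spread between these libraries, which may be technical.

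Before S phase, the origin recognition complex with CDC6 and CDT1 loads the MCM2-7 helicase onto origins, and CDC45 and the GINS complex then activate it. Primase with DNA polymerase alpha starts each strand, the PCNA clamp and its RFC loader hold the replicative polymerases on the template, and chromatin assembly factors repackage the copy. Many of these genes are targets of E2F transcription factors, which the RB family restrains until G1 cyclin-dependent kinases act. In bulk RNA, fewer cells in S phase and less RNA per cell cannot be told apart.

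Because many of these genes are known E2F targets, their promoters were searched on both strands for the E2F octamers TTTCCCGC, TTTGGCGC, TTTCGCGC and TTTGCCGC. A high share of octamers could follow from that choice of genes, and a link to their changes was not tested. The windows ran from 250 bases before to 50 bases after the start site in RefSeq (GRCh38.p14), and the expression files are of build hg19. The table holds 56 windows for 43 of the members, and 8 members have none there. An octamer was present in 24 of the 56 windows (42.9%), in 3 of 34 windows of mitosis and G2/M genes (8.82%) and in 1164 of 35116 windows of all genes (3.31%). CCAAT was present in 62.5% of the members' windows, 70.6% of the mitosis windows and 34.6% of all windows. The CHR hexamer TTTGAA was present in 3.57%, 55.9% and 15.2% of the same sets. The members' windows had a median GC content of 66.0%, against 58.7% over all windows. The 6 windows printed here belong to members with large changes in the comparisons that follow. They are MCM6 at chr2:135876394-135876693 (minus strand), DTL at chr1:212035498-212035797 (plus strand), CLSPN at chr1:35769929-35770228 (minus strand), GINS1 at chr20:25407423-25407722 (plus strand), PRIM1 at chr12:56752274-56752573 (minus strand) and CHAF1B at chr21:36385142-36385441 (plus strand). Capitals mark every stretch covered by an E2F octamer on either strand, and overlapping octamers run together.
MCM6: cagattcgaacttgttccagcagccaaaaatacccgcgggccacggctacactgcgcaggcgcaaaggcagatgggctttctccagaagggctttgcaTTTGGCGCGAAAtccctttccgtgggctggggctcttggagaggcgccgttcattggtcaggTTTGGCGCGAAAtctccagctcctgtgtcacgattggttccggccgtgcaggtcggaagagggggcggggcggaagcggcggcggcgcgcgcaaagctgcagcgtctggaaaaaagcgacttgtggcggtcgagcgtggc
DTL: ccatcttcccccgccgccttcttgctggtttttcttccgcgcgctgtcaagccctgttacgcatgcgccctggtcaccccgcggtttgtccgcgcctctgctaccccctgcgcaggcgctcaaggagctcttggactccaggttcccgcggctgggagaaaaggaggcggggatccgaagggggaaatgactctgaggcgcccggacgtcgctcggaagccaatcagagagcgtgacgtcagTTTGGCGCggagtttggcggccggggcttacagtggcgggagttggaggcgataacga
CLSPN: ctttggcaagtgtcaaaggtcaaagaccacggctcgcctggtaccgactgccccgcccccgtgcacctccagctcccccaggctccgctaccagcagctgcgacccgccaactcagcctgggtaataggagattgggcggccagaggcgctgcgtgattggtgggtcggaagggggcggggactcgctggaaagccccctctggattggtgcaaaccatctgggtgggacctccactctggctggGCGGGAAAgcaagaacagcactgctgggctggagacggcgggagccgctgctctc
GINS1: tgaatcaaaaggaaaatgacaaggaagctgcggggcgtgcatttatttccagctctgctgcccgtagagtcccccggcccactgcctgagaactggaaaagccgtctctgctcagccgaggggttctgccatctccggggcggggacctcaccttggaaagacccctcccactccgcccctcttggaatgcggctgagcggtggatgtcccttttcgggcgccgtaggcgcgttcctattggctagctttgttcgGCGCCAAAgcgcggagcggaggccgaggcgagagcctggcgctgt
PRIM1: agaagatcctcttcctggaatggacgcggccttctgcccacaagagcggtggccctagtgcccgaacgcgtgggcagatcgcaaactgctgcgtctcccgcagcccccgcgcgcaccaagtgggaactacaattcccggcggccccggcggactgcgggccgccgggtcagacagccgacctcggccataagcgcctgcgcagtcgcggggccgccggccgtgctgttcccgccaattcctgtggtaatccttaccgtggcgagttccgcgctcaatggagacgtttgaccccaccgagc
CHAF1B: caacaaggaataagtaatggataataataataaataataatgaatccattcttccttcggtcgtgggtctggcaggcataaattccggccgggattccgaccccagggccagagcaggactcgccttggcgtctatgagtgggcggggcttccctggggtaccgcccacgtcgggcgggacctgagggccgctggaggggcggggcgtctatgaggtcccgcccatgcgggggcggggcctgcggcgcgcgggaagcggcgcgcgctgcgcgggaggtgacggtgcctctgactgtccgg
Both capital stretches of MCM6 are the same and hold 2 overlapping octamers each. PRIM1 and CHAF1B have no octamer of these letters in the window. By gene, 8 of the 13 members that were lower in Combination than in DMSO and have a window held an octamer in at least 1 of them, as did 14 of the 28 that were not called and 1 of the 2 that were higher.

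Libraries held 31181742 to 39529357 recovered reads, and the smallest mean of a member was 513.8 normalized reads. Epithelial markers were high in all groups. Summed over 7 markers (EPCAM, KRT8, KRT18, PAX8, WT1, MUC16 and CDH1) they held 276085 to 319484 normalized reads in Combination, 255315 to 301225 in IFNa, 227759 to 287804 in FC-A and 256021 to 274202 in DMSO. The leukocyte sum over 4 markers lay between 194 and 313 normalized reads in every library. The endothelial sum over 3 markers lay between 182 and 232 in Combination, 193 and 253 in IFNa, 253 and 341 in FC-A and 286 and 359 in DMSO. The fibroblast sum over 5 markers lay between 1589 and 2189 in Combination, 1420 and 1931 in IFNa, 1009 and 1086 in FC-A and 854 and 918 in DMSO. The fibroblast sum was nearly all COL1A1, DCN averaged 0 outside IFNa, and the part of these transcripts in the results was not tested.

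The library numbered 3 stood apart in each group before any treatment was compared. Within Combination and within IFNa, 51 of the 51 members had their lowest value in replicate 3, within FC-A 50 and within DMSO 43. Among all genes tested, replicate 3 was the lowest for 39.3% in Combination, 41.5% in IFNa, 39.2% in FC-A and 37.8% in DMSO. In a limma fit with a term for replicate 3, chosen after the data were seen, 50 members were lower in replicate 3 than in replicates 1 and 2, and 12.5% of all genes tested were. Their median log2 difference was -0.28, against 0.00 over all genes. GINS2, a GINS subunit, was lower by a log2 difference of -0.42 and CDC45 by the same. RPA3, the small subunit of the single-strand binding protein RPA, was the member that did not pass the threshold (log2 difference -0.11, adjusted p = 0.21). The labels do not say what the replicate numbers mark, and what sets replicate 3 apart was not tested. Counts are therefore given with and without replicate 3 of every group.

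The mean log2 level of the 51 members, as a difference from the DMSO mean, was -0.04, -0.07 and -0.42 in Combination, 0.12, 0.13 and -0.18 in IFNa, 0.10, -0.05 and -0.28 in FC-A, and 0.03, 0.04 and -0.07 in DMSO, for replicates 1, 2 and 3. The group means were -0.18 ± 0.21 in Combination, 0.02 ± 0.18 in IFNa, -0.08 ± 0.19 in FC-A and 0 ± 0.06 in DMSO (SD, n = 3 each). The ranges of all 4 groups overlapped. Replicates 1 and 2 of IFNa were the highest libraries and replicate 3 of Combination the lowest. The members' transcripts made up 0.394 ± 0.052% of reads in Combination, 0.448 ± 0.044% in IFNa, 0.484 ± 0.052% in FC-A and 0.503 ± 0.017% in DMSO.

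**Figure D1:**
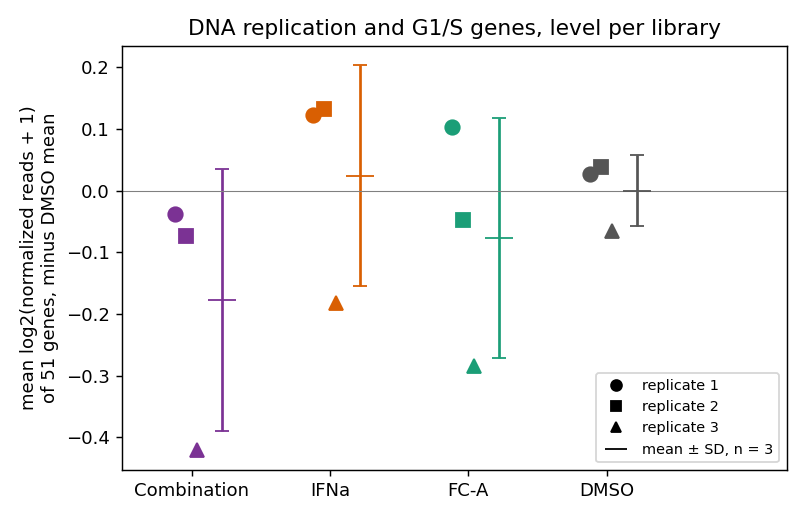
Mean log2(normalized reads + 1) of the 51 genes in each library, minus the mean of the DMSO libraries, by group. Symbols are replicates 1 to 3, and the bar beside them is the group mean with its SD (n = 3); replicate 3 is the lowest library of every group, at -0.42 in Combination.

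Against DMSO, 14 of the 51 members (27.5%) fell in Combination and 2 (3.92%), GINS1 and CHAF1B, rose, while 22.2% of all genes tested fell and 26.1% rose (limma, adjusted p under 0.05). With the 12 libraries, the share of members that fell was thus near that of all genes. The falls were spread over 6 of the 7 roles, with 4 in licensing, 3 among polymerases and primase, 4 among clamp, loader and strand-binding genes, and 1 each in nucleotide supply, chromatin and G1/S control. The members' median log2 fold change was -0.14, against -0.01 over all genes, and 42 of the 51 were below 0. Combination and DMSO libraries did not overlap for 22 of the 51 members and for 60.8% of all genes, so a lack of overlap was common. Without replicate 3, 20 of the 51 members fell and 5 rose, against 21.8% and 26.2% of all genes, with a median of -0.08. The share of members that fell was then above that of all genes.

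In origin licensing, 4 of 11 members fell, and all of them were subunits of the MCM helicase (MCM2, MCM3, MCM5 and MCM6). MCM6 had 3859, 3948 and 2842 normalized reads in Combination, 4789, 5037 and 3630 in IFNa, 5397, 4727 and 3881 in FC-A, and 5127, 5113 and 4669 in DMSO. Every Combination library lay below every DMSO library, and the fall was 1.41-fold (log2 fold change -0.50 ± 0.14 SE, adjusted p = 0.0102). MCM2 had 7324, 7450 and 5485 normalized reads in Combination, 8357, 8651 and 6703 in IFNa, 8936, 8627 and 7237 in FC-A, and 9015, 9141 and 8444 in DMSO. Its log2 fold change against DMSO was -0.41 ± 0.12 (adjusted p = 0.0114), again with no overlap. CDC6, the loader that brings the helicase to origins, had 3088, 2956 and 2286 normalized reads in Combination, 3766, 3956 and 2695 in IFNa, 3477, 2871 and 2175 in FC-A, and 3281, 3094 and 2804 in DMSO. CDT1, its partner, had 1654, 1524 and 995 in Combination, 1470, 1551 and 1257 in IFNa, 1578, 1502 and 1252 in FC-A, and 1466, 1497 and 1367 in DMSO. Neither passed the threshold in any comparison of the 12 libraries, and their groups overlapped. The log2 fold changes in Combination against DMSO were -0.15 ± 0.17 for CDC6 and -0.09 ± 0.15 for CDT1.

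Among helicase activators only GINS1 was called. It had 1598, 1535 and 1191 normalized reads in Combination, 1659, 1589 and 1360 in IFNa, 1222, 1140 and 1009 in FC-A, and 1101, 1118 and 1187 in DMSO. It rose 1.26-fold in Combination (log2 fold change 0.33 ± 0.11, adjusted p = 0.019) and replicate 3 of both groups nearly met. None of the other GINS subunits passed the threshold, and GINS2 had a log2 fold change of -0.42 ± 0.17 (adjusted p = 0.0547) in Combination against DMSO.

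Of the 8 polymerase and primase genes, PRIM1, PRIM2 and POLE2 fell and none rose. PRIM1, the catalytic subunit of primase, had the largest change of all members. It had 556, 603 and 371 normalized reads in Combination, 716, 695 and 525 in IFNa, 865, 831 and 631 in FC-A, and 843, 812 and 768 in DMSO. All Combination libraries lay below all DMSO and FC-A libraries, and the fall against DMSO was 1.62-fold (log2 fold change -0.69 ± 0.17, adjusted p = 0.00369). PRIM2, its regulatory partner, fell by 0.34 ± 0.10 in log2 units (adjusted p = 0.00996).

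Of the 13 clamp, loader, strand-binding and joining genes, RFC3, RFC4, RPA1 and UNG fell. UNG, the glycosylase that removes uracil from DNA, had 2843, 2751 and 2028 normalized reads in Combination, 3363, 3645 and 2555 in IFNa, 3611, 3175 and 2597 in FC-A, and 3579, 3628 and 3474 in DMSO. Its log2 fold change was -0.50 ± 0.15 (adjusted p = 0.0106), with no overlap between Combination and DMSO. RFC4, a subunit of the clamp loader, had 1738, 1702 and 1437 normalized reads in Combination, 1819, 1814 and 1628 in IFNa, 2131, 2086 and 1784 in FC-A, and 2106, 2211 and 2150 in DMSO. Both groups with interferon lay below all DMSO libraries, and the log2 fold change in Combination was -0.41 ± 0.08 (adjusted p = 0.000789). PCNA, the clamp itself, had 3573, 3565 and 2737 normalized reads in Combination, 4271, 4223 and 3384 in IFNa, 4188, 3575 and 3074 in FC-A, and 3988, 4046 and 3741 in DMSO. The difference from DMSO did not pass the threshold (log2 fold change -0.26 ± 0.12, adjusted p = 0.0866), although Combination and DMSO did not overlap, and it passed without replicate 3 (-0.17, adjusted p = 0.029).

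In nucleotide supply, RRM1, the large subunit of ribonucleotide reductase, fell (log2 fold change -0.32 ± 0.10, adjusted p = 0.0139). RRM2, the small subunit, had 9330, 9132 and 7010 normalized reads in Combination, 10455, 10575 and 8360 in IFNa, 9003, 7711 and 6485 in FC-A, and 8336, 8590 and 8008 in DMSO. TYMS, which makes thymidylate, had 10041, 9811 and 7783 in Combination, 10916, 10928 and 8949 in IFNa, 9835, 9374 and 8036 in FC-A, and 9444, 9537 and 8931 in DMSO. The Combination and DMSO ranges overlapped for both, with log2 fold changes of 0.02 ± 0.12 for RRM2 and -0.02 ± 0.10 for TYMS.

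Chromatin genes went both ways. CHAF1B, a subunit of the CAF-1 histone chaperone, had 2198, 2143 and 1693 normalized reads in Combination, 2223, 2303 and 1836 in IFNa, 1719, 1692 and 1370 in FC-A, and 1623, 1721 and 1471 in DMSO. It rose in Combination against DMSO (log2 fold change 0.32 ± 0.12, adjusted p = 0.0335), although replicate 3 of Combination lay within the DMSO range. UHRF1, which carries DNA methylation through replication, had 1370, 1369 and 903 normalized reads in Combination, 1668, 1621 and 1342 in IFNa, 1911, 1629 and 1303 in FC-A, and 1808, 1772 and 1537 in DMSO. It fell 1.43-fold (log2 fold change -0.51 ± 0.16, adjusted p = 0.0156) with no overlap.

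Of the 5 G1/S control and checkpoint genes, DTL fell and none rose. DTL, the substrate receptor of the ligase that destroys CDT1, had 1254, 1172 and 869 normalized reads in Combination, 1509, 1485 and 1069 in IFNa, 1697, 1407 and 1207 in FC-A, and 1529, 1532 and 1462 in DMSO. Its log2 fold change was -0.47 ± 0.15 (adjusted p = 0.0189), with no overlap between Combination and DMSO. CCNE2, the second cyclin E, had 898, 746 and 558 normalized reads in Combination, 1062, 1020 and 765 in IFNa, 848, 733 and 558 in FC-A, and 828, 940 and 837 in DMSO. Combination and DMSO overlapped for CCNE2 (log2 fold change -0.27 ± 0.17, adjusted p = 0.225).

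Replicate 3 of Combination weighed on these calls. Without it, 5 members fell and 2 rose, with 44.0% of all genes called in either direction. MCM2, MCM5, MCM6, POLE2, RFC3, UNG, RRM1, UHRF1 and DTL then no longer passed. MCM3, PRIM1, PRIM2, RFC4 and RPA1 passed whichever single library was left out. The log2 fold changes of the 9 that no longer passed lay between -0.35 and -0.21 without replicate 3 of Combination. MCM2, MCM6, RFC3 and UNG missed the threshold narrowly, with adjusted p from 0.0509 to 0.0538, and POLE2 by the most (adjusted p = 0.183). This setting kept replicate 3 of DMSO. With replicate 3 of every group left out, all 16 members called with the 12 libraries kept their calls, these 9 included. Leaving out replicate 1 of DMSO left 10 members called, all lower, without GINS1 and CHAF1B, and 41.7% of all genes called. MCM5, POLE2, UHRF1 and DTL each lost their call without replicate 1 or 2 of DMSO. In the authors' deposited values 20 members were lower and 2 higher, with 38.6% of all genes called in either direction. MCM5 was not called there, nor with no variance trend. Under quantile normalization the median of all genes was -0.11, against -0.01 in the deposited scaling, and that of the members was -0.31. With that scaling 32 members were lower and 0 higher, and 53.5% of all genes were called. The calls of GINS1 and CHAF1B therefore depend on the scaling.

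**Figure D2:**
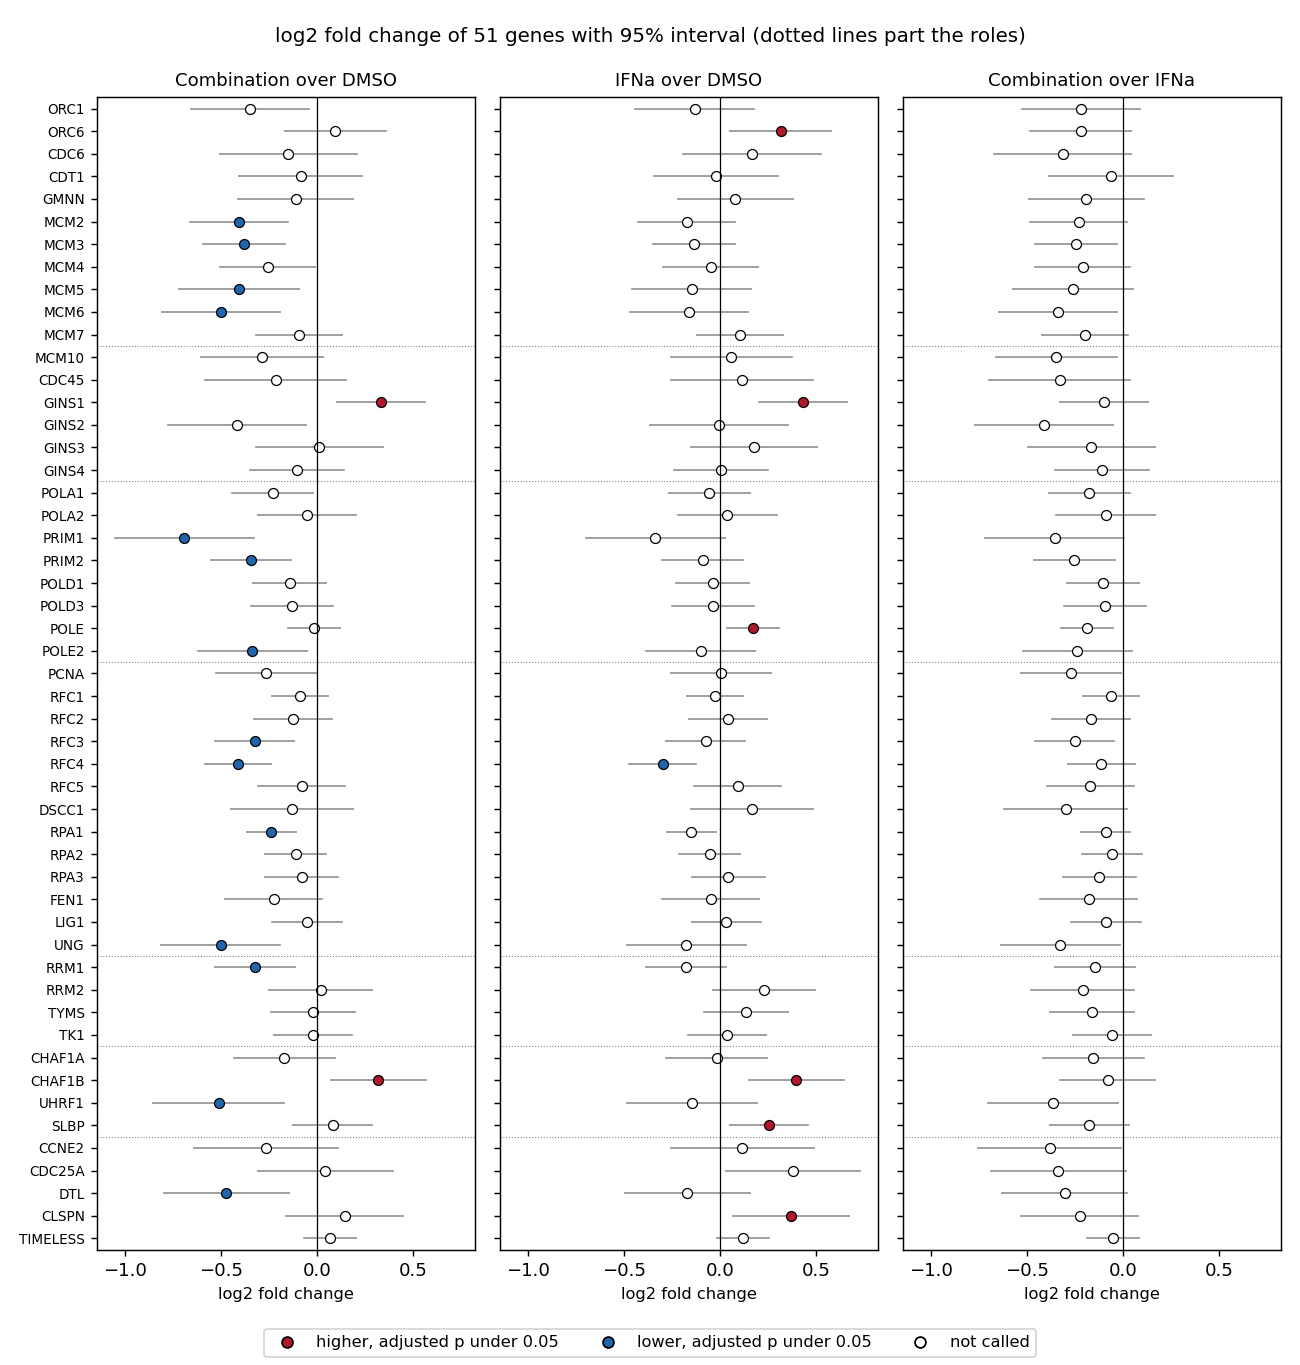
log2 fold change of each of the 51 genes with its 95% interval in Combination over DMSO, IFNa over DMSO and Combination over IFNa, grouped by role from licensing (top) to G1/S control (bottom). Filled points passed an adjusted p of 0.05, red for higher and blue for lower; 16 are filled in the first panel, 7 in the second and 0 in the third, where all points lie below 0.

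With the 12 libraries, interferon alpha alone raised a smaller share of the members than of all genes. Against DMSO, 6 (11.8%) rose and 1 (1.96%) fell, while 25.4% of all genes tested rose and 21.5% fell. The median log2 fold change was 0.01 for the members and -0.01 for all genes. IFNa and DMSO libraries did not overlap for 11 of the 51 members and for 58.2% of all genes. The 6 that rose were ORC6, GINS1, POLE, CHAF1B, SLBP and CLSPN, and RFC4 fell. Without replicate 3, 16 of the 51 members rose and 2 fell, against 26.3% and 21.1% of all genes, with a median of 0.04. The share of members that rose was then slightly above that of all genes, and the share that fell stayed below.

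GINS1 was the member that rose most in IFNa, by 1.35-fold (log2 fold change 0.43 ± 0.11, adjusted p = 0.00431), with every IFNa library above every DMSO library. CHAF1B rose by 0.40 ± 0.12 in log2 units (adjusted p = 0.0111), also with no overlap. CLSPN, the claspin adaptor of the replication checkpoint, had 2545, 2605 and 1948 normalized reads in Combination, 3069, 3029 and 2224 in IFNa, 2428, 1980 and 1732 in FC-A, and 2185, 2220 and 1976 in DMSO. Its log2 fold change in IFNa against DMSO was 0.37 ± 0.14 (adjusted p = 0.0448), and replicate 3 of IFNa lay just above the highest DMSO library. ORC6, a subunit of the origin recognition complex, had 989, 978 and 738 normalized reads in Combination, 1119, 1086 and 930 in IFNa, 924, 786 and 682 in FC-A, and 833, 889 and 792 in DMSO. The IFNa libraries lay above all DMSO libraries (log2 fold change 0.31 ± 0.12, adjusted p = 0.0478). SLBP, which binds the stem-loop of histone messages, had 2743, 2630 and 2297 in Combination, 2971, 3158 and 2541 in IFNa, 2502, 2194 and 1989 in FC-A, and 2495, 2495 and 2251 in DMSO. It rose in IFNa by 0.26 ± 0.10 in log2 units (adjusted p = 0.04) with no overlap. POLE, the catalytic subunit of polymerase epsilon, rose by 0.17 ± 0.06 (adjusted p = 0.0394). RFC4 fell by 0.30 ± 0.08 in log2 units (adjusted p = 0.0078).

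GINS1 and RFC4 passed whichever single library was left out, and CHAF1B passed except without replicate 3 of DMSO (adjusted p = 0.0538). ORC6, POLE, SLBP and CLSPN each lost their call when any of 6 libraries was left out. These were the 3 DMSO libraries, replicates 1 and 2 of IFNa and replicate 2 of FC-A. With each of them out, 2 to 4 members were called in all, and 38.7% to 45.3% of all genes. ORC6 and SLBP also lost their call without replicate 2 of Combination, and CLSPN without replicate 1 of Combination. Under quantile normalization, 1 member was higher and 11 were lower in IFNa than in DMSO, with 50.9% of all genes called. The median of all genes was then -0.10 and that of the members -0.15. The direction of the members as a group in IFNa therefore depends on the scaling.

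**Figure D3:**
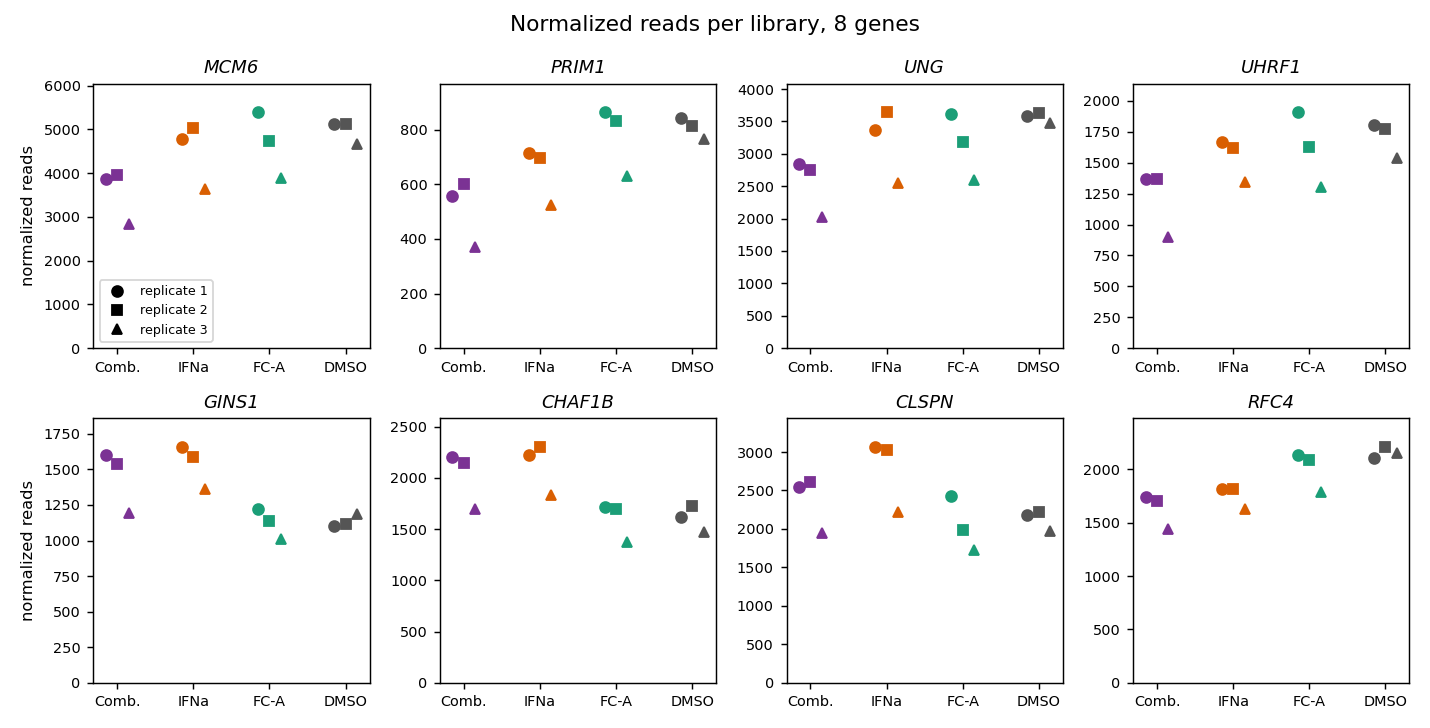
Normalized reads per library for 8 genes, with groups from left to right Combination, IFNa, FC-A and DMSO and symbols for replicates 1 to 3; each y axis starts at 0. MCM6, PRIM1, UNG and UHRF1 (top) lie lower in every Combination library than in every DMSO library, and GINS1, CHAF1B and CLSPN (bottom) each have their highest library in IFNa.

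With FC-A on top of interferon, the mean of every member was lower, and none passed the threshold with the 12 libraries and group means alone. In Combination against IFNa, 51 of 51 log2 fold changes were below 0, with a range from -0.41 (GINS2) to -0.05 (TIMELESS) and a median of -0.19, while 48.6% of all genes tested were below 0 with a median of 0.00. Related lists had similar shares below 0, with 39 of 44 further replication genes, 28 of 30 mitosis genes and 26 of 27 homologous recombination and Fanconi genes. No member was called by limma, and 11 had an unadjusted p under 0.05, as did 2118 of the 15990 genes tested. edgeR and DESeq2 on the recovered reads also called 0 members. The test called 0.138% of all genes higher and 0.194% lower. MCM6 had a log2 fold change of -0.34 ± 0.14 (adjusted p = 0.338), PRIM1 -0.36 ± 0.17 (adjusted p = 0.385) and PCNA -0.27 ± 0.12 (adjusted p = 0.363). PRIM1 had 556, 603 and 371 normalized reads in Combination and 716, 695 and 525 in IFNa, which overlap only through replicate 3 of IFNa.

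Replicate 3 decided whether members were called here. Without replicate 3 of every group, 20 members were lower and 0 higher, against 3.55% and 3.87% of all genes, and the median was -0.18. With all 12 libraries and a term for replicate 3, 26 members were lower and 0 higher, against 3.23% of all genes lower. The 20 members called without replicate 3 were the 6 subunits of MCM2-7, MCM10, CDC45, GINS2, CDC6, PRIM1, PRIM2, PCNA, RFC3, UNG, DTL, UHRF1, DSCC1, CDC25A and CCNE2. GINS2 had a log2 fold change of -0.41 ± 0.07 (adjusted p = 0.0054), CDC6 of -0.35 ± 0.07 (adjusted p = 0.0096) and MCM6 of -0.33 ± 0.06 (adjusted p = 0.0045) in these 8 libraries. In replicates 1 and 2, GINS2 had 1078 and 984 normalized reads in Combination, against 1322 and 1410 in IFNa. In replicate 3 it had 714 in Combination, against 955 in IFNa. With only replicate 3 of Combination left out, 42 members were below 0 with a median of -0.08, and none had an unadjusted p under 0.05. With only replicate 3 of IFNa left out, 36 had one, and with replicate 1 or 2 of IFNa out, 0 and 1 had one. How many of all genes had one in these fits was not counted.

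FC-A alone gave no call among the members, by limma, edgeR or DESeq2. Against DMSO, 45 of 51 log2 fold changes were below 0, with a median of -0.08, and 0.156% of all genes were called higher and 0.144% lower. RFC3, a clamp loader subunit, was the single member with an unadjusted p under 0.05 (log2 fold change -0.26 ± 0.10, adjusted p = 0.448). Of the 15990 genes tested, 1376 had such a p in this limma fit. Without replicate 3, 27 members were below 0 and the median was -0.01. No member was then called, against 0.375% of all genes higher and 0.463% lower. An unadjusted p under 0.05 was found for 1 member, a count not made over all genes. Single FC-A libraries set the direction. Without replicate 3 of FC-A, 14 members were below 0 with a median of 0.03, and without replicate 1 of FC-A, 50 were, with a median of -0.17. PCNA had 4188, 3575 and 3074 normalized reads in FC-A and 3988, 4046 and 3741 in DMSO, so the groups overlapped through replicate 1 of FC-A.

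The interaction asks whether the FC-A effect differed with interferon present (Combination minus IFNa, against FC-A minus DMSO). No member passed by limma, edgeR or DESeq2, and limma called 0% of genes in either direction. The interaction was below 0 for 49 of 51 members, with a median of -0.12. POLE was the 1 member with an unadjusted p under 0.05 (-0.21 ± 0.09), against 627 of the 15990 genes tested. Without replicate 3, 25 members had an unadjusted p under 0.05, a count not made over all genes. None passed after adjustment, where 0.00625% of all genes were called higher and 0% lower. The members' median without replicate 3 of every group was -0.16. With only replicate 3 of Combination left out, the median was 0.01 and 24 members were below 0. A difference between the effects of FC-A with and without interferon was therefore not shown for any member.

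Against FC-A alone, the Combination differed by the addition of interferon. Here 10 members (19.6%) fell and 2 (3.92%) rose, against 22.3% and 26.6% of all genes, with a median of -0.09. The members that fell were MCM2, MCM3, MCM6, PRIM1, PRIM2, RFC4, RPA1, RRM1, UHRF1 and DTL, and GINS1 and CHAF1B rose. PRIM1 fell by 0.62 ± 0.17 in log2 units (adjusted p = 0.00728) with no overlap, and UHRF1 by 0.42 ± 0.16 (adjusted p = 0.0407) with groups that overlapped. GINS1 rose by 0.35 ± 0.11 (adjusted p = 0.0139). Combination and FC-A libraries did not overlap for 4 members and for 53.9% of all genes. Without replicate 3, 16 fell and 6 rose, against 21.7% and 26.6% of all genes. PRIM1, RFC4 and RPA1 passed whichever single library was left out. Leaving out replicate 3 of Combination left 4 members higher and 3 lower, with a median of 0.01 and 45.0% of all genes called. Leaving out replicate 1 of FC-A left 3 higher and 3 lower (48.1% of all genes called). Leaving out replicate 2 of FC-A left 2 higher and 3 lower (41.7%). Quantile normalization gave 26 lower and 0 higher, with 53.2% of all genes called.

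**Figure D4:**
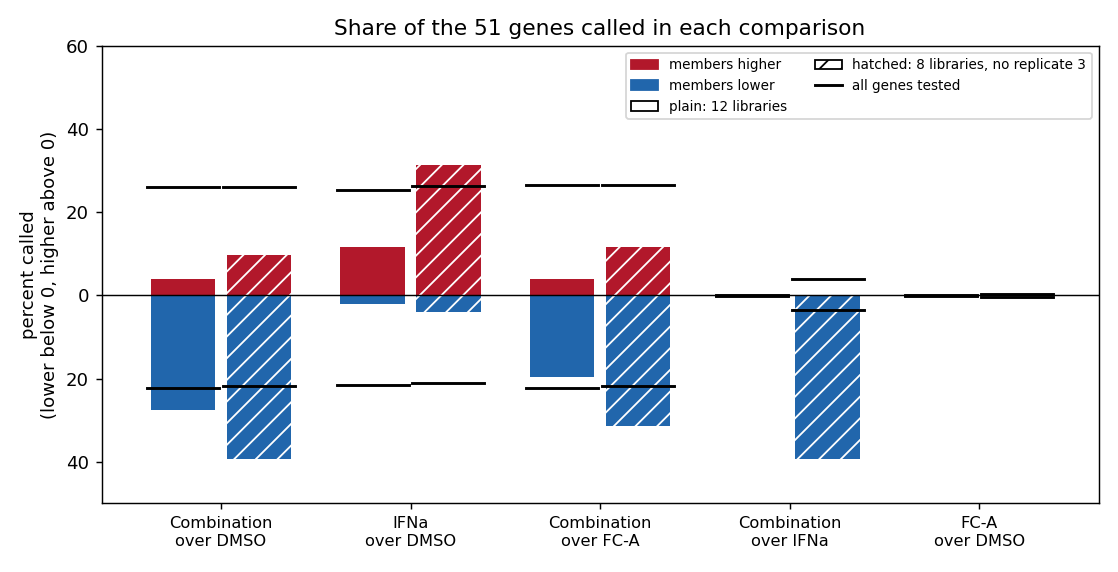
Percent of the 51 genes called higher (above 0) and lower (below 0) in 5 comparisons, with 12 libraries (plain bars) and with the 8 libraries that leave out replicate 3 (hatched bars). Black lines give the percent of all 15990 genes tested; in Combination over IFNa 0 members were called with 12 libraries and 20 lower without replicate 3.

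Replication genes outside the list included some with larger changes. Of 44 further replication genes, 14 fell and 4 rose in Combination against DMSO (median log2 fold change -0.17). In IFNa against DMSO 6 fell and 3 rose (median -0.04). Among all genes tested, 22.2% fell and 26.1% rose in Combination, and 21.5% fell and 25.4% rose in IFNa. Without replicate 3 the counts were 17 and 5 in Combination and 7 and 6 in IFNa. The shares of all genes were then 21.8% and 26.2% in Combination and 21.1% and 26.3% in IFNa. DBF4B, a regulatory subunit of the origin-firing kinase CDC7, averaged 1437 normalized reads in Combination, 1435 in IFNa, 779 in FC-A and 759 in DMSO. Its log2 fold change against DMSO was 0.91 ± 0.09 in Combination and 0.92 ± 0.09 in IFNa. TOP1, which relaxes supercoils ahead of the fork, rose by 0.62 ± 0.04 in Combination and 0.60 ± 0.04 in IFNa on the log2 scale. WDHD1, which links polymerase alpha to the helicase, fell by 0.56 ± 0.11 in Combination and 0.35 ± 0.11 in IFNa. None of the 44 was called in FC-A against DMSO, with or without replicate 3. In Combination against IFNa none was called with the 12 libraries. Without replicate 3, 5 were lower and 0 higher, against 3.55% and 3.87% of all genes.

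The 30 mitosis and G2/M genes give the nearest comparison within the cell cycle. In Combination against DMSO, 26 fell and 1 rose, with a median log2 fold change of -0.56, where the members' median was -0.14. In IFNa against DMSO, 25 fell and 2 rose, with a median of -0.43, where the members' median was 0.01. Among all genes tested, 22.2% fell and 26.1% rose in Combination, and 21.5% fell and 25.4% rose in IFNa. BUB1B, a spindle checkpoint kinase, averaged 1982 normalized reads in Combination, 2295 in IFNa, 4187 in FC-A and 4346 in DMSO. Without replicate 3 the same counts were 26 and 1 in Combination and 25 and 2 in IFNa. The difference between the lists was not tested.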

How the data were processed

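Poly(A) RNA of 12 OVCAR-3 libraries (100 ng RNA, stranded kit, per the labels' protocols) was measured. The deposited values are normalized read signal per gene. In each library 100% of values became whole within 0.01 after division by 1 factor, so reads were recovered from them. Build hg19 and the tools STAR 2.7.3, DESeq2 1.24.0, bcl2fastq 2.20 and FastQC are listed in the submitters' processing notes; the counting program is not given in the sources used here. The authors' deposited log2 fold changes and p-values serve only as an alternative.

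Members and lists were chosen with earlier results of these data known. Genes averaging at least 10 normalized reads were tested (15990; 12045 left out). limma 3.58.1 (R 4.3.3) fitted 4 group means with a variance trend to log2(value + 1), which understates changes of low genes, and two-sided p-values were Benjamini-Hochberg adjusted over all genes (threshold 0.05). Per-library values are given for PCNA, CDT1, CDC6, MCM2, RRM2, TYMS, SLBP, CCNE2 and up to 4 called members with the largest change per direction and comparison. edgeR 4.0.16 and DESeq2 1.42.0 on recovered reads, other filters, pseudocounts and scalings, a replicate block and left-out libraries were alternatives. The fits were tested on simulated data.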

Additional observations from a re-analysis of the deposited data

How the results depend on the processing

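Shares of all genes called in either direction are given in brackets after each count of members. For IFNa against DMSO, 7 members were called here (46.9%). The count was 3 with no filter (26.4%), 12 under quantile normalization (50.9%) and 3 with no variance trend (44.9%). It was 18 without replicate 3 of every group (47.4%) and 18 with a term for replicate 3 (54.5%). At a fold of at least 1.5 it was 0 (18.6%), and with single libraries left out 2 to 9 (38.7% to 48.7%). The count in Combination against DMSO, 16 here, was 32, 25, 28 and 1 under quantile normalization, without replicate 3, with a term for replicate 3 and at the fold of 1.5, and 7 to 20 with single libraries left out. Combination against IFNa gave 20 calls without replicate 3 (7.42%) and 26 with a term for it (6.94%). FC-A against DMSO gave 1 with that term (2.10%). Combination against FC-A had 12 here (48.9%). It had 26 under quantile normalization (53.2%), 4 with no variance trend (47.0%) and 7 with only the compared groups fitted (43.3%). Without replicate 3 it had 22 (48.2%), with the term 22 (56.3%) and at the fold of 1.5 it had 1 (20.1%). Single libraries left out gave 5 to 16 (41.7% to 50.8%). Of the called values of single members, 776 alternatives kept direction and threshold, 168 kept direction only, and 1 reversed: POLE in IFNa against DMSO was -0.027 under quantile normalization. PRIM1 passed in Combination against DMSO and against FC-A under each of the 27 alternatives. The cause of these changes was not tested.

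The replicate numbers were not taken as pairing the samples. Correlations of same-numbered libraries across groups, after removal of group means, ran from 0.02 to 0.40, and 8 of 12 libraries correlated best with a library of their own number, which is a hint from the data and not the design. With a replicate block, 17 members were called in IFNa against DMSO (53.9% of all genes) and 28 in Combination against DMSO (55.4%). There were 24 in Combination against IFNa (6.31%) and 22 in Combination against FC-A (55.7%). FC-A against DMSO had 1 (1.81%) and the interaction 0. The lowest mean of a member was 513.8 normalized reads, and the effect of depth was not tested.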

Other observations

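Of 24 genes of the E2F, RB and G1 control system that were tested, 7 fell and 8 rose in Combination against DMSO, and 7 fell and 9 rose in IFNa against DMSO (limma, adjusted over all genes). The shares of all genes that fell and rose were 22.2% and 26.1% in Combination and 21.5% and 25.4% in IFNa. Without replicate 3 the counts were 7 and 9 in Combination and 7 and 11 in IFNa. CDKN1A, the p21 inhibitor of cyclin-dependent kinases, averaged 4381 normalized reads in Combination, 3324 in IFNa, 1182 in FC-A and 881 in DMSO. It rose in Combination against IFNa (log2 fold change 0.40 ± 0.07, adjusted p = 0.0273) and in FC-A against DMSO (0.42 ± 0.07, adjusted p = 0.0183). MYC averaged 2349 in Combination, 2952 in IFNa, 646 in FC-A and 888 in DMSO, and fell in FC-A against DMSO by 0.46 ± 0.07 on the log2 scale (adjusted p = 0.00877). E2F8, an E2F that represses transcription, fell by 1.08 ± 0.07 in Combination and by 0.80 ± 0.07 in IFNa against DMSO (log2 units, SE). E2F2 fell by 0.75 ± 0.05 in Combination and by 0.50 ± 0.05 in IFNa against DMSO, in the same units. The largest fall of the list in both was that of CDKN2C, an inhibitor of cyclin-dependent kinases. It averaged 43.4 normalized reads in Combination, 36.7 in IFNa, 157 in FC-A and 172 in DMSO. CCND1, a G1 cyclin, rose in both. It averaged 25837 normalized reads in Combination, 28155 in IFNa, 9416 in FC-A and 10532 in DMSO.

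Of 27 homologous recombination and Fanconi genes, 10 fell and 6 rose in Combination against DMSO, and 4 fell and 9 rose in IFNa against DMSO. The shares of all genes that fell and rose were 22.2% and 26.1% in Combination and 21.5% and 25.4% in IFNa. Without replicate 3 the counts were 9 and 8 in Combination and 5 and 9 in IFNa. NBN, a subunit of the complex that senses double-strand breaks, averaged 6094 normalized reads in Combination, 6316 in IFNa, 2972 in FC-A and 3132 in DMSO. BRIP1, a helicase partner of BRCA1, averaged 1276 in Combination, 1317 in IFNa, 690 in FC-A and 731 in DMSO. MRE11, a partner of NBN, fell by 0.43 ± 0.07 in Combination and by 0.30 ± 0.07 in IFNa against DMSO on the log2 scale.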
